A study of Mus musculus with 8 samples.

Results

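The tripartite motif (TRIM) genes were followed in RNA-seq of mouse bone marrow-derived macrophages (BMDMs) that lacked or kept the nuclear receptor coactivator Ncoa6. Members were all genes whose symbol is Trim followed by a number, pseudogenes left out, with at least 10 counts summed over the 8 libraries. Of 68 such rows in the table, 50 were members, among 17625 genes that passed the same minimum out of 50615 listed. The other 18 rows fell under the minimum, 9 of them at 0 in every library. Members were chosen by the count sum alone, and around the minimum Trim29 was left out with 7 counts while Trim9 with 14 and Trim72 with 15 were kept. Among the members, 12 were set apart as interferon-linked, namely the 10 genes of the Trim30a cluster on chromosome 7, Trim21 and Trim25, and 38 remained.

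All mice were C57BL/6 carrying floxed Ncoa6 on both alleles. The control cells, labelled WT and called Ncoa6-sufficient in the plots, were Ncoa6 fl/fl, and the knockout cells (Ncoa6-KO) were Ncoa6 fl/fl LysM-Cre, in which Cre is driven from the Lyz2 gene in myeloid cells. Marrow was grown for 6 days with 20 ng/ml M-CSF, the growth factor that yields macrophages. In each genotype 2 libraries came from cells left in medium, and 2 came from cells given lipopolysaccharide (LPS, a bacterial cell wall component sensed by TLR4) at 100 ng/ml for 4 h and then monosodium urate crystals (MSU, which trigger the NLRP3 inflammasome) at 200 µg/ml for 2 h. The 2 libraries of each of the 4 groups came from different mice, and whether libraries of 1 genotype in the 2 culture conditions shared mice is not given in the sources used here. With 2 libraries against 2, an exact two-sided permutation test of a single gene cannot go below p = 0.333, so the tests below come from models fitted across all genes.

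Most TRIM proteins have an N-terminal RING finger that transfers ubiquitin, followed by B-box zinc fingers and a coiled coil, and they differ in the domain at their C-terminal end, which binds substrates. Many members of the PRY-SPRY class are made in response to interferon and act in antiviral defence: TRIM5 recognises retroviral capsids, TRIM21 is a cytosolic antibody receptor, and TRIM25 ubiquitinates the RNA sensor RIG-I. In macrophages TRIM30a is known as a brake on TLR signalling that promotes the degradation of TAB2 and TAB3, while other members such as TRIM28, TRIM24 and TRIM33 work in the nucleus as transcriptional cofactors.

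The libraries held 25281955 to 33673552 counts assigned to genes. Values below are counts scaled with trimmed-mean (TMM) factors to a common effective library size of 29332189, called normalized counts, with mean ± SD over 2 libraries where a mean is given. A gene was called changed at an adjusted p under 0.05 in edgeR's quasi-likelihood test over all 17625 genes. Ncoa6 itself was at 1515 and 1405 normalized counts in the control libraries in medium and at 784 and 622 in the knockout libraries, and at 1297 and 1173 against 563 and 526 with LPS+MSU. All 8 macrophage markers listed were detected, with summed levels of 405700 to 470600 in control and 265900 to 306500 in knockout libraries in medium, a list that includes Lyz2, the gene that carries the Cre. Lyz2 alone averaged 241000 in control and 119770 in knockout libraries in medium. Of 5 T and NK cell markers, 3 were at 0 throughout. In medium, the summed dendritic cell markers (6 genes) were at 768.2 to 776 in control and 461.6 to 586.6 in knockout libraries, the endothelial markers (5 genes, 1 at 0) at 532.9 to 712.3 and 365.3 to 378.9, and the stromal markers (5 genes) at 384.5 to 425.6 and 140.4 to 456.6. The dendritic cell sum was almost all Itgax, with means of 758 in control and 508 in knockout libraries. The other dendritic cell markers tested averaged at most 8.32 in either genotype and did not move together. Of the osteoclast markers, Ctsk was higher and Dcstamp lower in knockout cells in medium. The part of these differences in the TRIM values was not tested. These are bulk samples, in which fewer cells of a type and less RNA per cell cannot be told apart.

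The 10 cluster genes lie side by side on chromosome 7 of the GRCm38 mouse genome, from the start of Trim6 (chr7:104218793-104235152, plus strand) to the end of Trim30d (chr7:104470014-104507849, minus strand). Trim30b (chr7:104355382-104369884), Trim30c (chr7:104382065-104400837) and Trim30a (chr7:104409025-104465193) precede Trim30d on the minus strand. Trim21 (chr7:102557921-102565486, minus strand) lies on the same chromosome outside the cluster, and Trim25 (chr11:88999376-89020293, plus strand) on another. Promoter windows around the annotated start sites (RefSeq, GRCm38.p6) were found for 39 of the 50 members, including all 12 interferon-linked ones. The only window of Trim30b lies inside the gene span given above, away from its upstream end. The core of the interferon-stimulated response element (ISRE), a motif bound by IRF factors, was searched on both strands as GAAANNGAAA. It occurred in 7 of the 12 interferon-linked members (58.33%), in 2 of the 27 remaining members with a window (7.41%) and in 3.99% of all genes with a window. The 7 were Trim30a, Trim30d, Trim12a, Trim12c, Trim5, Trim34a and Trim21, and the other 2 were Trim26 and Trim2. Around the core Trim30a and Trim30d are near copies, as are Trim12a, Trim12c and Trim5 (printed below). The share of the interferon-linked members thus counts like sequences separately.

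Within the Trim30 group the sequence around this core is nearly the same in Trim30a and Trim30d and altered in Trim30c, and the stretches are printed here so that they can be set beside the responses of these genes below. They run 5′ to 3′ on the minus strand, with the ISRE core in capitals for Trim30a (chr7:104465195-104465254, core 36 bases before the start site) and Trim30d (chr7:104507856-104507915, 59 of 60 bases identical to Trim30a).
Trim30a: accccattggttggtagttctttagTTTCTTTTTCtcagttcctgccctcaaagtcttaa
Trim30d: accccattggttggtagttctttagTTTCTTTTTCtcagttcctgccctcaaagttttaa
The best matching stretch of Trim30c (chr7:104400881-104400940) has 52 of 60 bases in common with Trim30a, and its window holds no GAAANNGAAA on either strand. Here the capitals mark the 8 bases that differ from Trim30a.
Trim30c: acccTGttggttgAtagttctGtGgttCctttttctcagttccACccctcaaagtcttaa
For Trim30b the only window found lies inside the gene span, and in it no stretch shared more than 23 of the 60 bases with Trim30a. The best stretch there was chr7:104358782-104358841, and sequence at the upstream end of the Trim30b span was not searched.

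A second set shows how alike the promoters of Trim12a (chr7:104315451-104315510), Trim5 (chr7:104288121-104288180) and Trim12c (chr7:104353344-104353403) are, again on the minus strand with the core in capitals. Trim5 is identical to Trim12a over these 60 bases, and Trim12c shares 57 of them.
Trim12a: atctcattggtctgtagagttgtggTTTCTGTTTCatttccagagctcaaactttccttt
Trim5: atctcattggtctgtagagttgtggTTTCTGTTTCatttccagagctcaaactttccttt
Trim12c: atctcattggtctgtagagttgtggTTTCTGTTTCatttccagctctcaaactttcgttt
Outside these near copies, Trim21 (chr7:102565433-102565494, minus strand) holds 2 overlapping cores and Trim34a (chr7:104244442-104244501, plus strand) holds 1. Trim26 (chr17:36836961-36837026, plus strand), which was called higher with LPS+MSU as described below, holds 2 that overlap, the first 160 bases before its start site. Trim2 (chr3:84212789-84212835, minus strand, not printed) holds 1. It was called lower with LPS+MSU, with log2 fold changes of -1.86 in control and -1.50 in knockout cells.
Trim21: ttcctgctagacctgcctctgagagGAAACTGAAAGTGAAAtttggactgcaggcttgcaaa
Trim34a: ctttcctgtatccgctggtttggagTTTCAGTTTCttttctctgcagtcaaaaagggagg
Trim26: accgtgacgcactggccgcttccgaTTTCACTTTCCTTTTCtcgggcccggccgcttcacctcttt
A match in these windows is a description of the letters, and factor binding was not measured.

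Per kilobase of exon, and over all 8 libraries, Trim30a was the most abundant member at 3047 normalized counts per kb, followed by Trim25 at 2006, Trim21 at 1412, Trim30d at 1275 and Trim30c at 1271. In medium the order was different: the control libraries averaged 1032 per kb for Trim25 and 809 for Trim30a, and 46.3 for Trim30c. The interferon-linked genes made up 37.3% and 35.8% of all TRIM signal per kb in the control libraries in medium, 34.8% and 29.3% in the knockout libraries in medium, 78.5% and 77.2% in the control libraries with LPS+MSU, and 75.6% and 74% in the knockout libraries with LPS+MSU. In each culture condition both knockout libraries lay under both control libraries, by far less than the step from medium to LPS+MSU. The normalized counts of the 38 remaining genes summed to 24304 to 25486 in the medium libraries and to 29590 to 30783 in the LPS+MSU libraries of both genotypes. Trim26 alone went from a mean of 1674 to 9217 in control and from 1617 to 9560 in knockout libraries, a larger step than that of the sum. More of the remaining genes were called lower than higher with LPS+MSU, as given below.

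The largest rises with LPS+MSU among called members were those of Trim30c and Trim30b, in whose searched windows no ISRE core was found. Trim30c, a close relative of Trim30a, was at 96.8 and 61.9 normalized counts in the control libraries in medium and at 5492 and 4707 with LPS+MSU, a log2 fold change of 5.99 ± 0.28 (SE; adjusted p = 1.43e-08, edgeR). In the knockout libraries it went from 45.9 and 17.6 to 4026 and 3002. Trim30b was at 109 and 105 normalized counts in medium and 2624 and 2684 with LPS+MSU in control cells, a log2 fold change of 4.63 ± 0.104 (adjusted p = 2.67e-10, edgeR). These were the lowest of the 4 Trim30 genes in unstimulated cells per kb, at 46.3 for Trim30c and 14.2 for Trim30b against 248 for Trim30d and 809 for Trim30a in control libraries. Trim30d rose by 3.34 and Trim30a by 2.87 on the log2 scale in control cells, with Trim30a going from 3532 and 3121 to 25781 and 22966 normalized counts.

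Trim21, the antibody receptor, rose from 864 and 869 to 10317 and 10247 normalized counts in control cells (log2 fold change 3.57 ± 0.134) and from 734 and 556 to 9504 and 8849 in knockout cells (3.83 ± 0.136). Trim25, already high in medium at 6021 and 5857, reached 19011 and 16699 in control cells, a smaller step of 1.59 ± 0.114. The Trim12 pair, mouse relatives of the retroviral restriction factor TRIM5, rose alike: Trim12a from 605 and 552 to 2815 and 2820, and Trim12c from 1163 and 1123 to 5716 and 5393, both by 2.28 on the log2 scale. Trim34a rose from 789 and 730 to 2995 and 2756 (1.92 ± 0.14). All these increases in control cells passed the test with an adjusted p of at most 4.46e-07 (edgeR), and no library of the medium group reached one of the LPS+MSU group.

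The exceptions were Trim5, Trim6 and Trim34b. Trim5, whose printed promoter stretch is the same as that of Trim12a, was at 326 and 268 in medium and 377 and 409 with LPS+MSU in control cells (0.40 ± 0.193, adjusted p = 0.1, edgeR). In knockout cells Trim5 went from 297 and 188 to 406 and 362 and passed the test (0.66 ± 0.195, adjusted p = 0.0144, edgeR), a call that was lost without either Ncoa6-KO medium replicate 2 (0.37) or Ncoa6-KO LPS+MSU replicate 1 (0.56). Trim6, which makes the unanchored ubiquitin chains used by the kinase IKKε, was at 63.8 and 104 against 80.4 and 125 in control cells (0.30 ± 0.277), groups that overlapped. Trim34b had at most 10 counts in any library. The authors' quantification split reads between alike genes in this cluster: the deposited counts of Trim30a, Trim30d, Trim12a, Trim34a, Trim34b and Trim5 were not whole (beyond 0.001) in all 8 libraries and those of Trim12c in 7, while those of Trim30b and Trim30c were whole in every library. The 4 Trim30 genes summed into 1 count rose by 3.23 ± 0.182 in control and by 3.72 ± 0.187 in knockout cells.

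**Figure D1:**
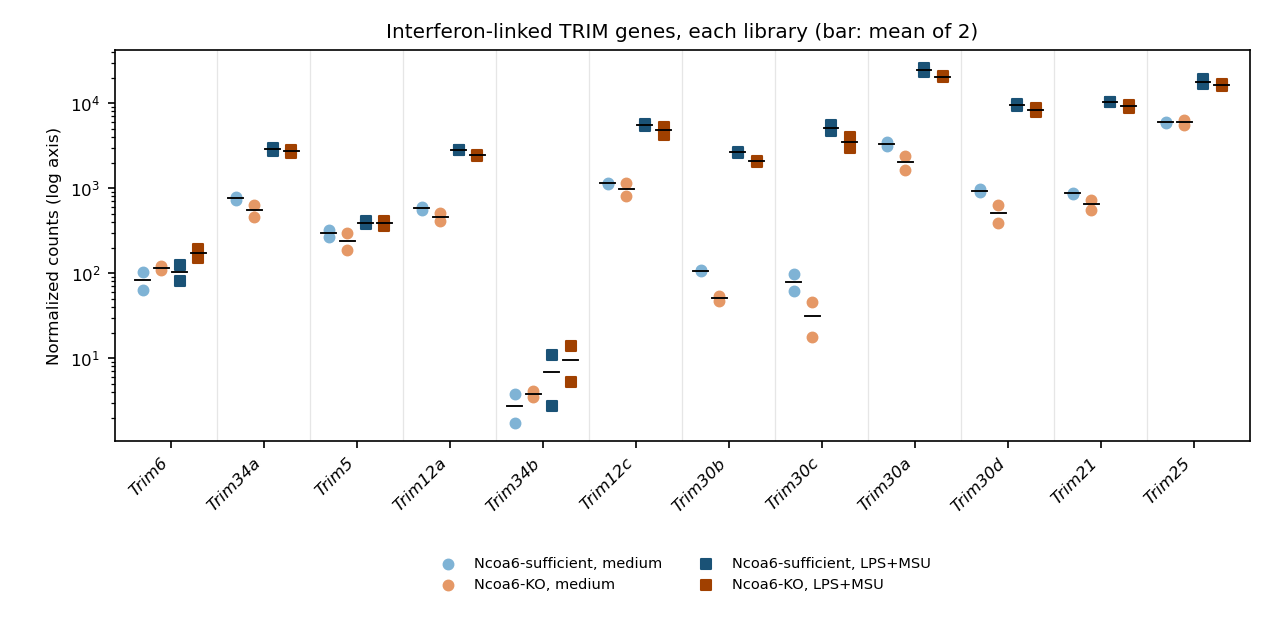
Normalized counts (log axis) of the 12 interferon-linked TRIM genes, one point per library and a bar at the mean of the 2 libraries of each group, cluster genes in genomic order followed by Trim21 and Trim25. The LPS+MSU squares lie above the medium circles for 10 genes in both genotypes, by a small step for Trim5, while Trim6 and Trim34b overlap in control cells, and for Trim30a, Trim30b, Trim30c and Trim30d both knockout circles lie below both control circles.

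Over the whole family, 36 of 50 members were called with LPS+MSU in control cells, 15 higher and 21 lower, against 55.2% of all genes tested (24.7% higher and 30.5% lower). In knockout cells 38 were called, 17 higher and 21 lower, against 53.1% of all genes (25.2% higher and 27.9% lower). Of the 12 interferon-linked genes, 9 were called higher in control and 10 in knockout cells and none was lower, with median log2 fold changes of 2.28 and 2.35 beside -0.12 and -0.07 over all genes. Of the 38 remaining genes, 6 were higher and 21 lower in control cells, with a median of -0.60, and 7 were higher and 21 lower in knockout cells, with a median of -0.43. The called falls thus all lay outside the interferon-linked list, which was drawn up with earlier results of these data known, while called rises lay both in it and outside it.

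Among the remaining genes only 5 that averaged 50 normalized counts or more were called higher in control cells. Trim13, an endoplasmic reticulum-anchored ligase, went from 197 and 178 to 1193 and 1133 normalized counts (log2 fold change 2.63 ± 0.116), and Trim26 from 1603 and 1745 to 8861 and 9573 (2.46 ± 0.101). Trim36, a microtubule-associated member with a COS box, rose from 182 and 188 to 968 and 844 (2.29 ± 0.146). Trim56, which supports STING and TLR3 signalling, rose from 1129 and 1125 to 3804 and 3860 (1.77 ± 0.0964), and Trim14, a MAVS adaptor without a RING finger, from 757 and 597 to 1948 and 1615 (1.39 ± 0.151). Each of the 5 also rose in knockout cells, by 2.46, 2.56, 3.10, 1.95 and 1.62 in the same order. Trim14 shares exon sequence with Nans on the opposite strand, and its deposited counts were whole in no library.

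Among members averaging 50 normalized counts or more, the largest falls in control cells were in Trim47, Trim16, Trim65, Trim59, Trim2 and Trim27. Trim47 dropped from 1038 and 1012 normalized counts to 67.9 and 75.7 in control cells, a log2 fold change of -3.83 ± 0.142 (adjusted p = 2.92e-09, edgeR), and from 935 and 940 to 70.6 and 95.1 in knockout cells (-3.50 ± 0.139). Its neighbour Trim65, a ligase of the RNA sensor MDA5, dropped from 472 and 501 to 70.7 and 62 (-2.87 ± 0.171). Their exons overlap on the same strand of chromosome 11 (chr11:116105752-116127210 and chr11:116121846-116131128), where a read could be assigned to either gene. The deposited counts of each were whole in all but 1 library, so few reads were split between them. Trim16, a RING-less member tied to the clearance of damaged lysosomes and to NRF2, fell from 447 and 448 to 55.4 and 55.1 (-3.02 ± 0.167), and it overlaps exons of Fbxw10.

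Trim59, a transmembrane member, fell from 812 and 785 to 134 and 154 normalized counts in control cells (-2.47 ± 0.118). Trim2, an NHL-repeat protein, fell from 196 and 248 to 56.8 and 64.7 (-1.86 ± 0.195), and Trim27 from 925 and 822 to 303 and 282 (-1.58 ± 0.112). By domain class, all 3 NHL-repeat members (Trim2, Trim3 and Trim32) and 3 of the 4 members with a PHD finger and bromodomain (Trim24, Trim28 and Trim33, named here after their values were seen) were called lower in both genotypes, with class medians of -0.87 and -0.91 in control cells. So were all 3 members with a MATH, ARF or filamin domain (Trim23, Trim37 and Trim45), at a class median of -1.24 in control cells. Of the 38 remaining genes as a whole, 55.3% were called lower in each genotype. The 30 PRY-SPRY members moved both ways, with 11 called higher and 7 lower in control cells, where 24.7% of all genes were higher and 30.5% lower.

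**Figure D2:**
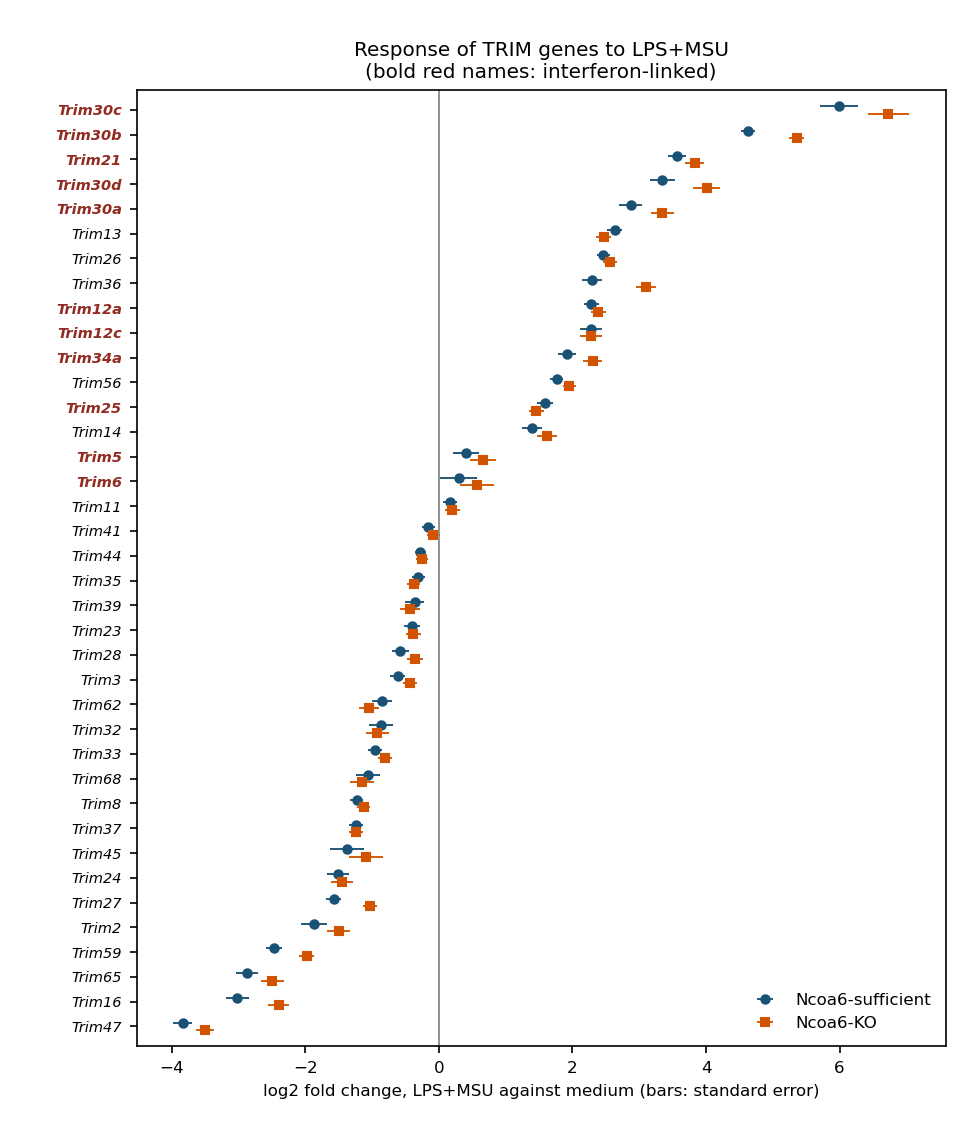
Log2 fold change of LPS+MSU against medium (horizontal axis) for the 38 TRIM genes averaging 50 normalized counts or more, circles for control and squares for Ncoa6-KO cells, with bars for the standard error and interferon-linked names in bold red. Interferon-linked genes lie right of 0, from 0.30 for Trim6 to 5.99 for Trim30c in control cells, and the 6 genes at the bottom, from Trim27 to Trim47, lie between -1.58 and -3.83.

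**Figure D3:**
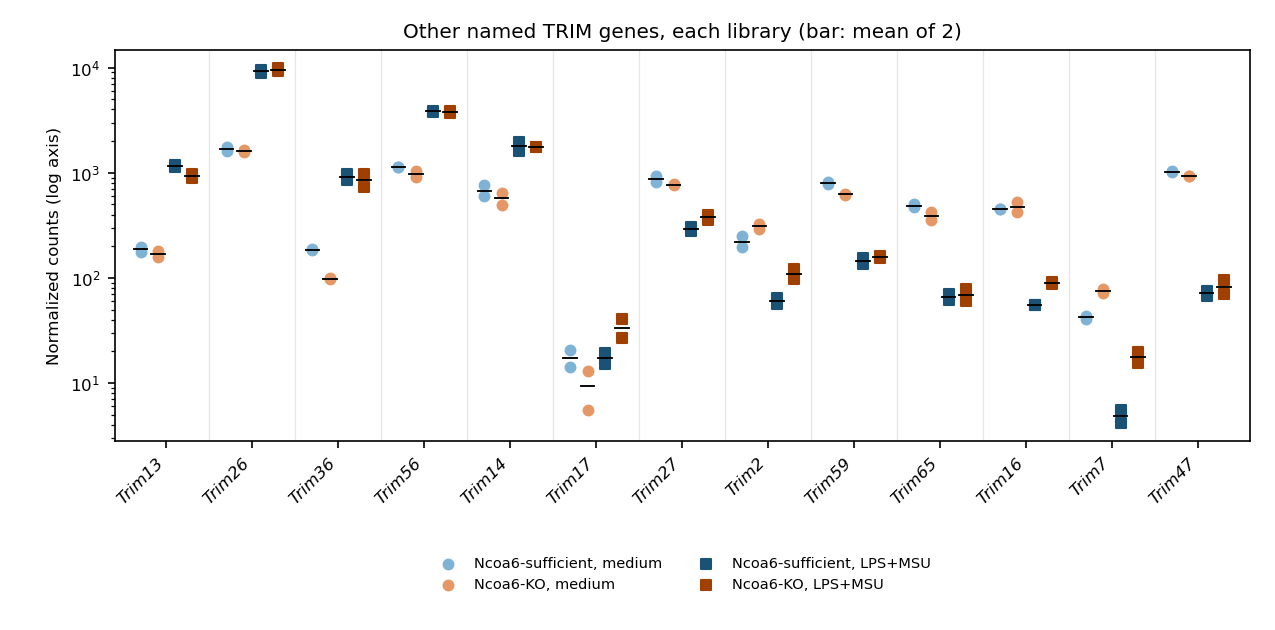
Normalized counts (log axis) of the other named TRIM genes, one point per library and a bar at the mean of the 2 libraries of each group. Trim13, Trim26, Trim36, Trim56 and Trim14 are higher with LPS+MSU (squares) than in medium (circles), Trim27, Trim2, Trim59, Trim65, Trim16, Trim7 and Trim47 are lower, and the knockout circles of Trim36 lie below the control circles.

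In medium, 3 of the 50 members were lower in knockout than in control cells and none was higher, against 1.88% of all genes called (1.3% lower and 0.573% higher). Trim30b was at 109 and 105 normalized counts in the control libraries and at 53.5 and 47.4 in the knockout libraries, a log2 fold change of -1.07 ± 0.127 (SE; adjusted p = 0.00319, edgeR). Trim36 was at 182 and 188 against 99.4 and 97.5 (-0.91 ± 0.161, adjusted p = 0.0226, edgeR). Trim30d was at 966 and 895 against 637 and 387 (-0.85 ± 0.182, adjusted p = 0.043, edgeR). In each of the 3, no knockout library reached a control library, and for Trim30d the second knockout library was well below the first.

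The other 2 Trim30 genes had the same direction and did not pass the test. Trim30a was at 3532 and 3121 in control and 2395 and 1617 in knockout libraries (-0.73 ± 0.163, adjusted p = 0.0514, edgeR). Trim30c was at 96.8 and 61.9 against 45.9 and 17.6 (-1.28 ± 0.361, adjusted p = 0.119, edgeR). The summed counts of the 4 genes, which do not depend on how reads were split among them, gave a log2 fold change of -0.77 ± 0.17 (adjusted p = 0.0483, edgeR). Among the interferon-linked genes outside the Trim30 group, Trim34a (789 and 730 against 640 and 454) differed by -0.47 ± 0.14, Trim21 (864 and 869 against 734 and 556) by -0.42 ± 0.126, and Trim12a (605 and 552 against 517 and 409) by -0.32 ± 0.115, with adjusted p of 0.144, 0.144 and 0.243 (edgeR).

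Trim25 (6021 and 5857 against 6400 and 5555) differed by 0.01 ± 0.111, and the libraries of Trim12c and Trim5 overlapped between genotypes. Trim6 had the opposite sign, at 63.8 and 104 against 108 and 121 (0.46 ± 0.262, adjusted p = 0.533, edgeR). In all, 9 of 12 interferon-linked genes had a negative log2 fold change, against 55.7% of all genes, their median was -0.37, and 7 had both knockout libraries below both control libraries, against 24.5% of all genes. For the 38 remaining genes the median was -0.03 and 11 lay apart in the lower direction, and the median over all genes was -0.03.

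The calls in medium depended on single libraries. Without Ncoa6-sufficient (WT) medium replicate 1 no member was called, and Trim30b then had an adjusted p of 0.0586 at a log2 fold change of -1.05. Without Ncoa6-KO medium replicate 1, 6 members were called and the Trim30d difference was -1.26, and without replicate 2 of that group 1 member was called and the Trim30d difference was -0.55. The Trim30d call held without that first knockout library and was lost without any other 1 of the 8 (adjusted p 0.0653 to 0.361, edgeR), and with the size factors of DESeq2 in edgeR (0.0502), with edgeR's filterByExpr (0.0557) and in a fit of the 4 libraries alone (0.0575). The Trim36 call was lost without any 1 of the 4 medium libraries (adjusted p 0.0564 to 0.185, edgeR) and with limma-voom (0.0524), while its log2 fold change stayed between -0.93 and -0.89 without 1 of these libraries. The second knockout library was also lower in other interferon-stimulated genes: 30 such genes outside the TRIM family summed to 92938 and 78473 normalized counts in the control libraries and to 56376 and 36168 in the knockout libraries in medium.

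With LPS+MSU, 1 member was called between the genotypes, against 3.59% of all genes (1.63% lower and 1.96% higher). Trim30b was at 2624 and 2684 normalized counts in control and 2112 and 2052 in knockout libraries, a log2 fold change of -0.35 ± 0.0841 (adjusted p = 0.0482, edgeR). This call did not hold with limma-voom (adjusted p = 0.0513), nor in a fit of the 4 libraries alone (0.123), nor without any 1 of the LPS+MSU libraries (0.106 to 0.272) or without either control library in medium (0.0853 and 0.0846), and the 4 Trim30 genes summed gave -0.28 ± 0.167 (adjusted p = 0.441, edgeR). Trim30c was at 5492 and 4707 against 4026 and 3002 (-0.54 ± 0.211, adjusted p = 0.218, edgeR), Trim30a at 25781 and 22966 against 20743 and 20070 (-0.26 ± 0.16, adjusted p = 0.463, edgeR), and Trim30d at 9245 and 9646 against 8740 and 7811 (-0.19 ± 0.171, adjusted p = 0.632, edgeR). Trim36, lower in medium, overlapped between genotypes here at 968 and 844 against 963 and 728.

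Of the interferon-linked genes 10 of 12 had a negative log2 fold change with LPS+MSU, against 49.3% of all genes, with a median of -0.18 beside 0.00039 over all genes, and 7 had no overlap in that direction, against 22.7% of all genes. The remaining genes had a median of 0.08, with 12 of 38 lying apart in the higher direction, against 24.7% of all genes. The next smallest p values belonged to genes that were higher in knockout cells and missed the threshold. Trim7, a ligase that binds glycogenin, had 3 and 4 counts in control and 12 and 14 in knockout libraries (normalized 4.16 and 5.51 against 15.7 and 19.6, log2 fold change 1.84 ± 0.459, adjusted p = 0.0562, edgeR). Trim2 was at 56.8 and 64.7 against 98 and 122 (0.85 ± 0.213, adjusted p = 0.0565, edgeR), and Trim16 at 55.4 and 55.1 against 87.6 and 92.3 (0.70 ± 0.196, adjusted p = 0.0847, edgeR). Trim27 was at 303 and 282 against 355 and 396 (0.36 ± 0.118, adjusted p = 0.138, edgeR), while in medium its libraries lay apart in the other direction, at 925 and 822 against 759 and 778 (-0.18 ± 0.102, adjusted p = 0.515). In medium Trim7 (40.5 and 43.9 against 78.6 and 71.1) and Trim2 (196 and 248 against 294 and 328) were also higher in both knockout libraries, without passing the test (0.83 and 0.49, adjusted p = 0.137 and 0.187, edgeR). All 4 genes fell with LPS+MSU in both genotypes. None of the 12 members with a mean under 50 normalized counts was called between genotypes in either culture condition.

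**Figure D4:**
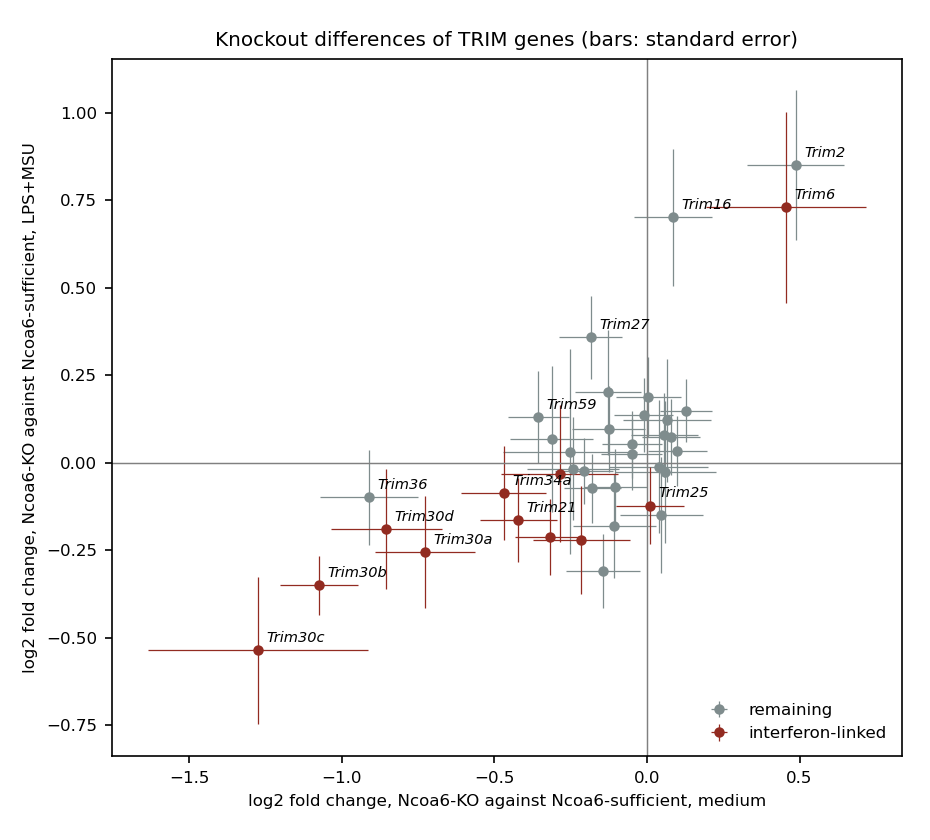
Log2 fold change of Ncoa6-KO against control cells in medium (horizontal axis) and with LPS+MSU (vertical axis) for the 38 TRIM genes averaging 50 normalized counts or more, with bars for the standard error and interferon-linked genes in red. The Trim30 genes lie at the lower left, from -0.73 (Trim30a) to -1.28 (Trim30c) in medium and from -0.19 to -0.54 with LPS+MSU, and Trim2, Trim6 and Trim16 lie above the others.

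Whether the response to LPS+MSU differed between genotypes was tested with the interaction term. No member passed, and no gene in the table did (0% of 17625), with a smallest adjusted p of 0.163 over all genes. DESeq2 and limma-voom also called 0 members, while a fit with no filter on low counts called 3. A fit with a replicate block within each genotype called members too, as given in the last part. At an unadjusted p under 0.05 there were 7 members, all with a positive interaction term, that is a larger rise or a smaller fall in knockout cells, against 5.93% of all genes (4.11% in that direction). The smallest p was that of Trim30b, whose response was 5.36 in knockout and 4.63 in control cells, a difference of 0.72 ± 0.153 (unadjusted p = 0.000649, adjusted p = 0.337, edgeR). Trim36 had a difference of 0.81 ± 0.21 (3.10 against 2.29), Trim27 of 0.54 ± 0.156 (-1.03 against -1.58), Trim59 of 0.49 ± 0.167 (-1.98 against -2.47) and Trim17 of 1.88 ± 0.689, the last at 5.56 to 40.5 normalized counts per library. The others of the 7 were Trim30d, with a difference of 0.66 ± 0.249, and Trim16, with 0.62 ± 0.235. Trim30a and Trim30c, with 0.47 ± 0.228 and 0.74 ± 0.42, were not among them (unadjusted p = 0.0636 and 0.107, edgeR).

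Genes that work with TRIM proteins were counted in the same fits, in which 1.3% of all genes were lower in knockout cells in medium, 24.7% and 25.2% rose with LPS+MSU in control and knockout cells, and 30.5% and 27.9% fell. All 30 interferon-stimulated genes outside the family rose with LPS+MSU in both genotypes, and in medium 21 of the 30 were lower in knockout cells (median log2 fold change -1.04), while with LPS+MSU 0 were called at a median of -0.27. Of 10 genes of the RIG-I and MAVS pathway, which TRIM25 acts on, 2 were lower in knockout cells in medium: Ddx58, which encodes RIG-I (-0.91 ± 0.185, adjusted p = 0.0375, edgeR), and Dhx58, which encodes LGP2 (-1.01 ± 0.186, adjusted p = 0.025, edgeR). Of 13 ubiquitin and E2 conjugating enzyme genes, 1 was lower in medium, Ube2l6, the E2 of the ubiquitin-like ISG15 (-0.73 ± 0.157, adjusted p = 0.0462, edgeR), and 11 rose and 1 fell with LPS+MSU in each genotype. None of the 9 TAK1, TAB and TLR adaptor genes, among them the TRIM30a substrate Tab2, and none of the 8 partners of TRIM24, TRIM28 and TRIM33 was called between genotypes in either culture condition. Of these 8 partners, 6 fell with LPS+MSU in each genotype.

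Of the 4 TRIM family genes that carry another symbol, none was called between genotypes, and Mid2 averaged 3.65 normalized counts in control cells in medium. Pml (TRIM19), the scaffold of PML nuclear bodies, was at 1745 ± 181 normalized counts in control cells in medium and rose by 2.85 ± 0.15 with LPS+MSU, and its knockout difference in medium was -0.54 ± 0.143 (adjusted p = 0.0967, edgeR). Mid1 (TRIM18), a microtubule-associated ligase, rose by 3.07 ± 0.149 and had a knockout difference in medium of -0.54 ± 0.148 (adjusted p = 0.103, edgeR). Mefv (TRIM20), which encodes the inflammasome sensor pyrin, rose by 2.92 ± 0.25 from 22.2 ± 3.84 normalized counts and had a knockout difference of -1.23 ± 0.329 (adjusted p = 0.0975, edgeR). Pml, Mid1 and Mefv thus had the sign of the Trim30 genes in medium, without passing the test.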

How the data were processed

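Total RNA of BMDMs was sequenced as stranded poly(A) libraries, paired-end. Per the labels and the study's methods, the authors aligned reads with STAR (2.7.3a) to GRCm38 and estimated gene counts with RSEM (1.3.3); the deposited values are expected counts per gene, not normalized, which were rounded here. Symbols came from a table of gene identifiers, and exon lengths and coordinates from GENCODE models of GRCm38. edgeR (4.0.16, R 4.3.3) quasi-likelihood tests with TMM factors and Benjamini-Hochberg adjustment were fitted to all 8 libraries as 4 groups, over the 17625 genes with a count sum of at least 10, with contrasts for genotype in each condition, stimulus in each genotype, and their interaction. Alternatives used DESeq2 (1.42.0), limma-voom (3.58.1), other scalings and filters, a replicate term, fits without each library, and summed paralogs. The fit was also run on simulated counts with the same fixed spread for every gene and no shift shared by the genes of a library. That run cannot show how the calls fare under such shifts. The smallest total was 25281955 counts.

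The members and all gene lists were chosen with earlier results of these data known. Genes named were the interferon-linked members, members called in a knockout comparison, up to 6 largest rises and 6 largest falls with LPS+MSU among remaining members averaging 50 normalized counts or more, the 5 highest levels per kb, the 5 smallest p values of each knockout comparison and the interaction, and members near the count minimum. The ISRE core was searched in RefSeq promoter windows (a second motif is not reported here), and Trim30a, Trim12a and their neighbours were compared without gaps. Replicate libraries differed beyond sampling noise.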

Additional observations from a re-analysis of the deposited data

How the results depend on the processing

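The counts called with LPS+MSU stayed within 1.5 times of 36 and 38 in every alternative run. Between genotypes in medium, 3 members were called, against 7 with no filter and 1 with an absolute log2 fold change over 1, and 0 to 6 without 1 library. With LPS+MSU, 1 member was called, against 0 with limma-voom, 0 in a fit of the 4 libraries alone, 6 with no filter, 0 with an absolute log2 fold change over 1, and 0 to 2 without 1 library. The interaction had 0, against 3 with no filter and 0 to 1 without 1 library. The median log2 fold change of the interferon-linked members in medium was -0.37, and -0.65 to -0.20 without 1 library. The share of all genes called in each alternative run is not given here. These counts therefore show how the calls depend on the run and do not set TRIM genes apart from other genes. The cause of these changes was not tested.

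Libraries of different groups share the numbers 1 and 2, which the labels do not tie to a mouse or day. The deviations of same-numbered libraries correlated between 0.0418 and 0.353 over 11219 genes in the 6 pairs of groups. The highest values were those within a genotype, 0.283 in control and 0.353 in knockout cells, against 0.0418 to 0.193 across genotypes. Whether same-numbered libraries of 1 genotype shared a mouse was not tested, and the main fit has no replicate term. With a replicate block across all groups, 8 members were called in medium and 6 with LPS+MSU. With a replicate block within each genotype, 9 and 5 were called, and the interaction had 5. In that fit the log2 fold change turned sign for Trim25 in medium (-0.014), and for Trim5 (0.12) and Trim56 (0.0081) with LPS+MSU. The share of all genes called is not given beside the counts of either block, so they too say nothing particular to TRIM genes.

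Of 105 gene-by-comparison values tried, 19 single results turned sign, and none of the turned values belonged to a gene called in that comparison. Without 1 library, the genotype difference in medium ranged from -0.51 to 0.024 for Trim12c, -0.096 to 0.11 for Trim25, -0.11 to 0.013 for Trim26 and -0.093 to 0.24 for Trim16. With LPS+MSU it ranged from -0.13 to 0.045 for Trim5, -0.33 to 0.084 for Trim36, -0.011 to 0.099 for Trim26, -0.069 to 0.0011 for Trim56, -0.16 to 0.11 for Trim14, -0.029 to 0.39 for Trim47 and -0.16 to 0.24 for Trim65. The response of Trim6 in control cells ranged from -0.017 to 0.69. Depth limits the genotype comparison of Trim7 with LPS+MSU, which rests on 3 to 14 counts per library, and every comparison of Trim34b.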
